A study of Rattus norvegicus with 10 samples.

Results

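Tnk2, Mmp2 and Trpc6 are 3 of the 32883 genes in a count table of CD11b+ cells from the brains of rats with intracerebral hemorrhage (ICH), and 3 of the 12199 that passed the filter on low counts. They were selected on their higher level in ICH + rhCDNF than in ICH + saline rats in earlier results from the same libraries, so the difference between the groups is described here and not tested. The cells were taken by magnetic selection for CD11b, a surface integrin of myeloid cells, from the hemorrhagic striatum of male SD rats on day 3 after ICH. In the study's methods the rats were 12 weeks old, and saline or recombinant human CDNF (rhCDNF), a neurotrophic factor that resides in the endoplasmic reticulum, was injected into the ventricle. The labels do not say whether collagenase or blood was infused to make the hemorrhage in these rats, and no library of uninjured animals was analysed here. There were 5 libraries per group, counted in the study's methods as 5 animals, with total counts of 14376582 to 16784638. The ICH + saline libraries are called S1, S2, S3, S4 and S5 and the ICH + rhCDNF libraries S6, S7, S8, S9 and S10, after an index in the column headers that is not the sample number of the labels.

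Tnk2 encodes a non-receptor tyrosine kinase, also known as ACK1, that binds the active form of the small GTPase Cdc42 and takes part in the endocytosis of growth factor receptors. Mmp2 encodes gelatinase A, a matrix metalloproteinase that is secreted as an inactive precursor, is activated at the cell surface by the membrane-bound metalloproteinase Mmp14, and cleaves collagen of the basement membrane. Trpc6 encodes a cation channel that lets calcium enter the cell when diacylglycerol is formed after receptor activation. Gelatinases are known in brain hemorrhage for their action on the blood-brain barrier, and calcium entry and tyrosine kinases take part in the migration and phagocytosis of myeloid cells.

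The table lists Ensembl identifiers without symbols. Tnk2 is ENSRNOG00000001769 by the rule that chose the genes. Mmp2 is taken to be ENSRNOG00000016695 and Trpc6 to be ENSRNOG00000006324, because their profile over the 10 libraries followed the rows of these names in the study's own expression table more closely than any other identifier. The SD of the log2 ratio between the profiles was 0.0393 for Mmp2 and 0.0320 for Trpc6, and the next best identifier had 0.114 and 0.101. The same comparison led from the name Tnk2 to the identifier of the rule.

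The 250 bases before the annotated start of Tnk2 and Trpc6 are shown because these are the regulatory sequences next to the genes described. They come from RefSeq (build GRCr8, another build than the Rnor_6.0 of the counts), which held an entry for 2 of the 3 genes; Mmp2 is named only. Capitals mark the letters GAGGAA or, on the other strand, TTCCTC, the core of the sequence bound by the myeloid transcription factor PU.1. The Tnk2 sequence lies at chr11:81659075-81659324 on the minus strand and the Trpc6 sequence at chr8:14043966-14044215 on the plus strand.
Tnk2: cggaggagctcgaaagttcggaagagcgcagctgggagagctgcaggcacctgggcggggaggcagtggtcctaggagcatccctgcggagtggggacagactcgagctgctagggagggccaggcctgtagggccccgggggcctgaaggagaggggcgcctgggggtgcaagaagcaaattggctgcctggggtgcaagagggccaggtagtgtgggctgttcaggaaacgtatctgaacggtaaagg
Trpc6: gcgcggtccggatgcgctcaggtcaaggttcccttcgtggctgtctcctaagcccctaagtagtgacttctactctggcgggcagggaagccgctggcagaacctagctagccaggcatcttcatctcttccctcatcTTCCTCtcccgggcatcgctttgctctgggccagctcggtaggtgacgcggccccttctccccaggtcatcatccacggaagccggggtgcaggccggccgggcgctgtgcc
The letters occur once in the Trpc6 sequence, beginning 112 bases before the start, and not in that of Tnk2, while 23.3% of 33469 such sequences in the rat annotation hold them on either strand. G and C make up 64.8% of the Tnk2 and 64.4% of the Trpc6 sequence, against a median of 51.2%.

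All 3 genes were well counted in every library, with 861 to 2196 reads each, so that counting error alone gives a relative SD of 2.13% to 3.41%. Their mean levels, as normalised read counts (CPM, reads scaled to a common library size with TMM factors), lay above those of 79.0% (Tnk2), 78.0% (Mmp2) and 78.9% (Trpc6) of the genes tested. CPM are not divided by gene length, so these places are in read numbers, not in transcripts.

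Tnk2 had the widest separation of the groups. In the saline libraries its level was 56.2 CPM in S1, 66.4 in S2, 67.5 in S3, 72.6 in S4 and 65.5 in S5, a mean of 65.6 ± 5.94 CPM (SD, n = 5). In the rhCDNF libraries it was 128 CPM in S6, 94.7 in S7, 80.2 in S8, 115 in S9 and 84.6 in S10, a mean of 101 ± 20.6 CPM (SD, n = 5). The kinase transcript was thus above every saline library in all 5 rhCDNF libraries, and the lowest of these, S8, exceeded the highest saline library, S4, by 10.5%, which is about the relative SD among the saline libraries (9.05%) and less than that among the rhCDNF libraries (20.4%). The ratio of the group means was 1.53 and the ratio of the medians 1.43. The fit gave a log2 fold change of 0.62 (standard error 0.12).

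Mmp2 overlapped between the groups by the narrowest of margins. Its level in the saline libraries was 50.7 CPM in S1, 66.2 in S2, 62.2 in S3, 69.4 in S4 and 68.9 in S5, with a mean of 63.5 ± 7.69 CPM (SD, n = 5). The rhCDNF libraries held 106 CPM in S6, 79.8 in S7, 69.4 in S8, 139 in S9 and 79.9 in S10, with a mean of 94.8 ± 28.1 CPM (SD, n = 5). Library S8 of the rhCDNF group differed from saline library S4 by -0.0646%, far within the counting error, and the other 4 rhCDNF libraries lay above every saline library. The ratio of the means of this gelatinase was 1.49 but that of the medians was 1.21, because S9 and S6 stood well above S7, S8 and S10. On the log2 scale the fitted difference was 0.58 (standard error 0.17).

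Trpc6 was high in S6 and S9 and close to the saline level in S7 and S10. The saline libraries held 72.7 CPM in S1, 59.1 in S2, 62.4 in S3, 70.8 in S4 and 71.1 in S5, a mean of 67.2 ± 6.08 CPM (SD, n = 5). The rhCDNF libraries held 128.5 CPM in S6, 73.2 in S7, 86.9 in S8, 127 in S9 and 74.2 in S10, a mean of 97.9 ± 27.6 CPM (SD, n = 5). Each of the 5 rhCDNF libraries of this channel gene lay above each saline library, but the lowest, S7, did so by 0.651% over S1, less than the counting error. Scaling by total counts alone made the groups overlap. The ratio of the means was 1.46, that of the medians 1.23, and the log2 fold change in the fit 0.54 (standard error 0.16).

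**Figure D1:**
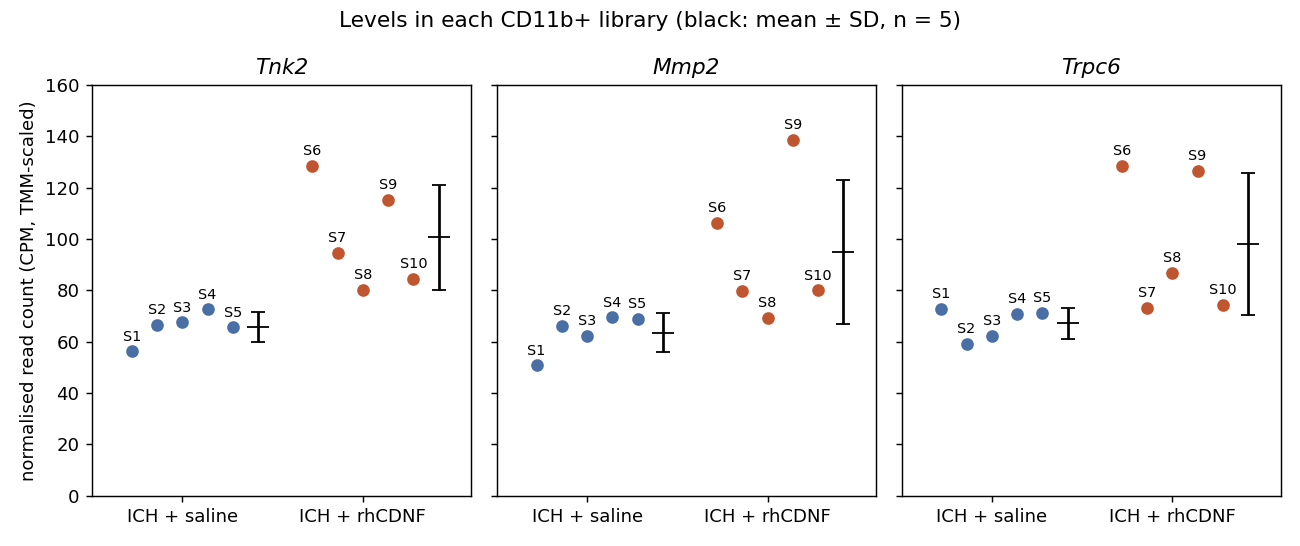
Normalised read count (CPM, linear axis from 0) of Tnk2, Mmp2 and Trpc6 in each library, saline in blue and rhCDNF in orange, with the group mean ± SD (n = 5) in black. S6 and S9 are the highest libraries in each panel, at 106 CPM or more, and the lowest rhCDNF library lies above the highest saline library by 10.5% for Tnk2 and by 0.651% for Trpc6, and level with it for Mmp2.

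Over the whole table, 0.975% of the genes tested (119 of 12199) were higher in every rhCDNF than in every saline library, and 1.26% (154) were lower in every one. Tnk2 and Trpc6 are 2 of the 119. As the genes were selected on this contrast, their share is not read against that background. edgeR's quasi-likelihood test called 0 of the 12199 genes (0%) at an adjusted p under 0.05, with 1511 genes at an unadjusted p under 0.05 (841 higher and 670 lower). DESeq2 called 2 genes, Tnk2 and Enpp2, and edgeR's likelihood ratio test 3, the same genes and Fndc1, all of them higher in rhCDNF; nothing is read from the place of Tnk2 among them, since it was selected on this contrast. The median log2 fold change of the genes tested was 0.001, and 2.04%, 2.44% and 2.96% of them had a larger one than Tnk2, Mmp2 and Trpc6.

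The size of each difference rested in part on S6 and S9. Relative to the saline mean, Tnk2 stood at 1.96 in S6 and 1.75 in S9, and at 1.44 in S7, 1.22 in S8 and 1.29 in S10. Mmp2 stood at 1.68 in S6 and 2.18 in S9, against 1.26 in S7, 1.09 in S8 and 1.26 in S10. For Trpc6 the values were 1.91 in S6 and 1.88 in S9, against 1.09 in S7, 1.29 in S8 and 1.10 in S10. Every ratio was above 1, and the order of S7, S8 and S10 differed between the genes, with S7 highest for Tnk2 and S8 highest for Trpc6.

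Leaving out 1 library at a time kept each difference above 0. The log2 fold change of Tnk2 ranged from 0.51 without S6 to 0.69 without S8. That of Mmp2 ranged from 0.40 without S9 to 0.68 without S8. That of Trpc6 ranged from 0.42 without S6 to 0.63 without S7. The kinase gene thus kept the largest part of its difference without its highest library, and no single library reversed any of the 3. That the sign held was fixed beforehand, since the groups did not overlap for Tnk2 and Trpc6 and barely did for Mmp2.

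**Figure D2:**
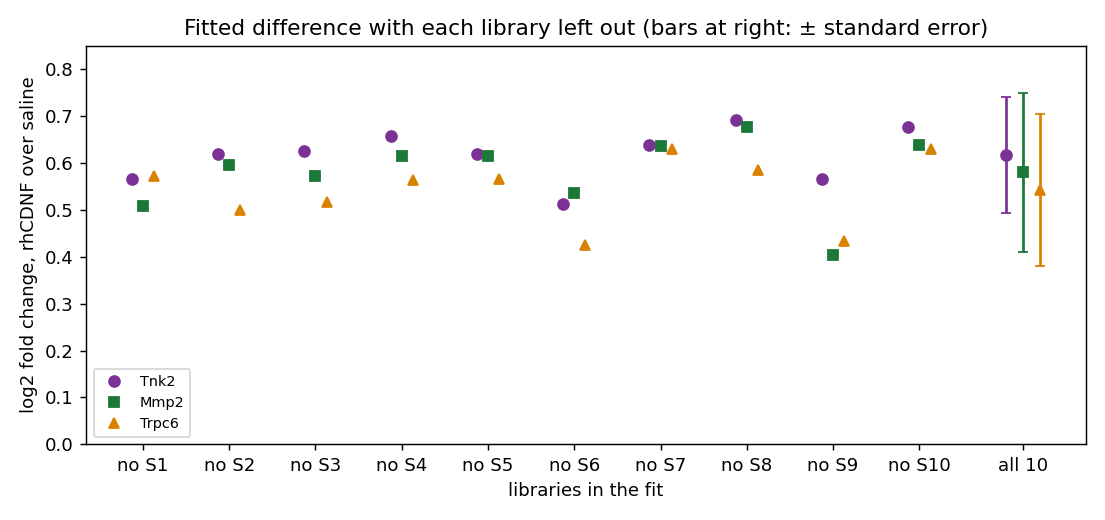
Fitted log2 fold change (rhCDNF over saline) of Tnk2, Mmp2 and Trpc6 with each library left out in turn, and at the right with all 10 libraries and its standard error. The lowest points are those without S6 for Tnk2 (0.51) and Trpc6 (0.42) and without S9 for Mmp2 (0.40).

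The rhCDNF libraries were also more spread than the saline libraries. The coefficient of variation of Tnk2 was 9.05% in saline and 20.4% in rhCDNF libraries, that of Mmp2 12.1% and 29.6%, and that of Trpc6 9.05% and 28.2%. On the log2 scale the SD in rhCDNF was 2.15 times that in saline for Tnk2 and Mmp2 and 3.01 times for Trpc6. A larger spread in rhCDNF was common in these libraries: 67.1% of all genes tested had one, with a median ratio of 1.29. Ratios above those of Tnk2, Mmp2 and Trpc6 were found for 19.95%, 20.0% and 8.71% of the genes tested.

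Whether the 3 genes vary together was tested on the deviation of each library from its own group mean. The genes were chosen on the difference between the groups, which rested in part on S6 and S9. The choice may thus favour genes that are high in those libraries, and the permutation p-values do not allow for it. Tnk2 and Mmp2 varied together, with a Pearson r of 0.85 over the 10 libraries (exact two-sided permutation test over 14400 arrangements within groups, p = 0.0124, 0.0371 adjusted over the 3 pairs) and a Spearman rho of 0.90 (exact permutation p = 0.00688, adjusted 0.0206). The deviations of Tnk2 and Mmp2 had the same sign in 9 of 10 libraries, all but S3. Both were below the group mean in S1 (-0.22 and -0.31 on the log2 scale), S7, S8 (-0.30 and -0.40) and S10, and both were above it in S2, S4, S6 (0.37 and 0.21) and S9 (0.22 and 0.59). In S5 Tnk2 was at the group mean (0.003), so that the sign there carries no information. The call was lost when any 1 of 7 of the libraries was left out, with adjusted exact permutation p of 0.0510 to 0.150 and r of 0.80 to 0.86. Without S6 and S8, the libraries farthest from the median of Tnk2, r was 0.91 (exact permutation p = 0.0278, adjusted 0.0833).

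Trpc6 shared the high libraries S6 and S9 but not the order of the rest. Its r was 0.69 with Tnk2 (exact permutation p = 0.144, adjusted 0.144; rho 0.61, p = 0.184) and 0.68 with Mmp2 (exact permutation p = 0.127, adjusted 0.144; rho 0.59, p = 0.181). Neither relation passed the threshold, which does not show that Trpc6 varies on its own. In saline library S1, where Tnk2 and Mmp2 were lowest, Trpc6 was highest of the saline group (0.12 above the group mean on the log2 scale). Without S1 the 3 pairs were alike, with r of 0.82 for Tnk2 and Mmp2, 0.82 for Tnk2 and Trpc6 and 0.82 for Mmp2 and Trpc6 and an adjusted exact permutation p of 0.101 for each, so the contrast between the pairs rested on that library. Without the 2 libraries farthest from the median of the first gene, r was 0.57 with Tnk2 (without S6 and S8, exact permutation p = 0.400) and 0.55 with Mmp2 (without S9 and S8, p = 0.192). Whether the r of 0.85 between Tnk2 and Mmp2 differs from that of the other pairs was not tested.

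**Figure D3:**
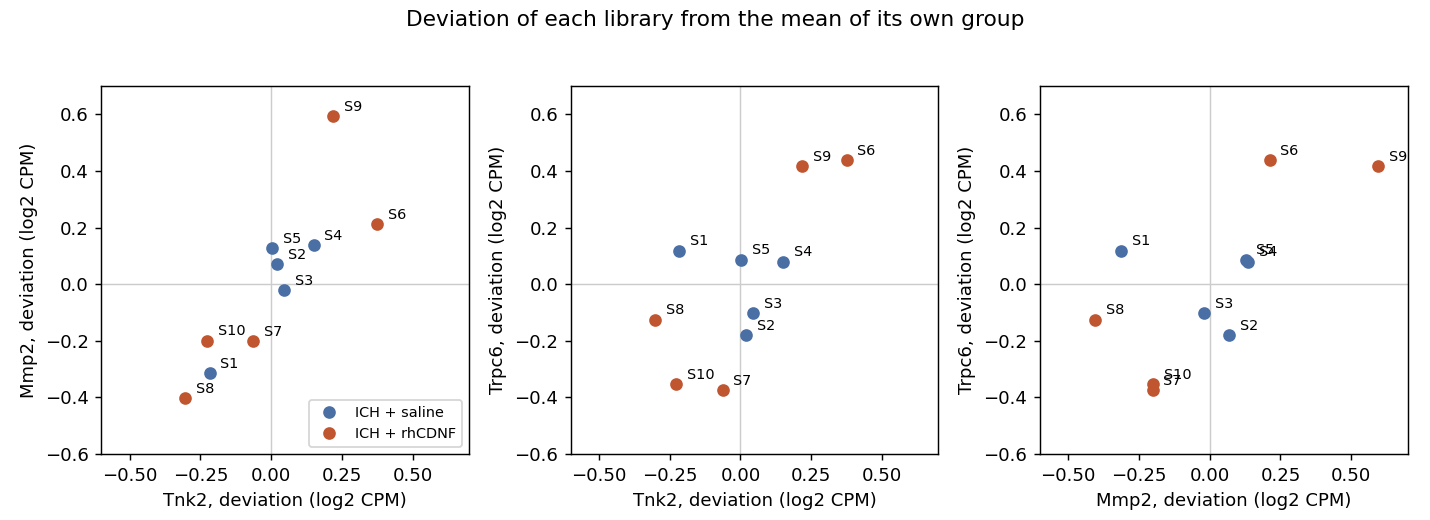
Deviation of each library from its own group mean (log2 CPM) for the 3 pairs of genes, saline in blue and rhCDNF in orange. The points of Tnk2 and Mmp2 follow a rising line (r = 0.85), while in the panels with Trpc6 saline library S1 lies off it, low for Tnk2 and Mmp2 and above the mean for Trpc6.

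Such likeness was not rare in the table. Among the other genes tested, 359 (2.94%) had a higher within-group r with Tnk2 than Mmp2 had, and 124 (1.02%) a higher one with Mmp2 than Tnk2 had. For Trpc6, 745 genes (6.11%) were closer than Tnk2 and 794 (6.51%) closer than Mmp2. Of the 8238 genes with a mean of at least 10 CPM, 151 reached an r of 0.9 with Tnk2, 39 with Mmp2 and 40 with Trpc6.

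The genes most like each of the 3 could be named only among 659 identifiers, since names came from the part of the study's table with the smallest p-values. For Tnk2 these were Adgra2, an adhesion G protein-coupled receptor (r = 0.98), Lrp4, a receptor of the low-density lipoprotein receptor family (0.98), and Pld4, of the phospholipase D family (0.98). Adgra2 was at 88.8 ± 8.33 CPM in saline and 129 ± 36.3 CPM in rhCDNF libraries (SD, n = 5 each), with 175 CPM in S6. For Mmp2 they were Cux2, a homeobox transcription factor (0.95), Ccl4, a chemokine (0.95), and Csf1r, the receptor for colony-stimulating factor that microglia need to survive (0.94). Ccl4 was at 85.9 ± 14.01 CPM and 155 ± 79.8 CPM (SD, n = 5 each), with 263 CPM in S9. For Trpc6 they were Tal1, a basic helix-loop-helix transcription factor (0.96), Pou2f2, a POU domain transcription factor (0.92), and Egr3, an immediate early transcription factor (0.92). Tal1 was at 34.0 ± 2.31 CPM and 44.8 ± 9.79 CPM (SD, n = 5 each). The r values are over the 10 libraries and describe these libraries only.

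The named genes of a list of homeostatic microglia markers were highest in S6 and S9. Of 11 homeostatic microglia markers listed, 8 could be named (P2ry12, P2ry13, Tmem119, Cx3cr1, Sall1, Gpr34, Slc2a5 and Csf1r), and for all 8 the highest rhCDNF libraries were S6 and S9, as for Tnk2, Mmp2 and Trpc6 and for 16.1% of all genes tested. Their summed level was 3139 to 3871 CPM in the saline libraries, 5007 CPM in S6, 5559 CPM in S9 and 3465 to 3795 CPM in the other 3 rhCDNF libraries. The fractalkine receptor Cx3cr1, for instance, was at 298 to 327 CPM in saline libraries, 513 in S6, 492 in S9, 303 in S7, 278 in S8 and 339.5 in S10. The median log2 fold change of the 8 markers was 0.42, against 0.001 over all genes tested, and 4 of them had an unadjusted p under 0.05 and 0 an adjusted one (lowest adjusted p = 0.365, edgeR's quasi-likelihood test). Names were available mostly for genes with small p-values, so this median leans away from 0. For the same reason the named markers may favour genes that are high in S6 and S9. Their count of 8 is thus not read against the 16.1% of all genes tested. The paper proposes that the CD11b+ cells held both microglia and monocytes or macrophages from the periphery. Cx3cr1 was also on the list of myeloid markers, and whether each of the 8 genes is confined to microglia was not tested. In bulk samples a larger share of a cell type and more RNA per cell cannot be told apart.

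Set against the sum of these 8 markers, the groups lay closer together. Csf1r alone held 2412 CPM of the sum's saline mean of 3430 CPM, so this scale follows mainly that gene. Among the 8 markers the ratio of the group means ran from 1.20 for Csf1r to 1.48 for P2ry12 and 1.61 for Sall1. The ratio of Sall1 was above those of Tnk2 (1.53), Mmp2 (1.49) and Trpc6 (1.46), and that of P2ry12 was above that of Trpc6. A higher level in rhCDNF on the scale of the sum thus need not remain against single markers, which was not computed. Per 1000 CPM of the markers, Tnk2 was at 19.2 ± 1.44 CPM in saline and 23.7 ± 2.42 CPM in rhCDNF libraries (SD, n = 5 each), a ratio of 1.23, with 4 of 5 rhCDNF libraries above every saline library and S9 (20.7) within the saline range of 17.8 to 20.8. Mmp2 was at 18.5 ± 1.61 and 21.9 ± 1.88 CPM (SD, n = 5 each), a ratio of 1.185, again with 4 of 5 libraries above the saline range. Trpc6 was at 19.7 ± 2.02 and 22.7 ± 2.69 CPM (SD, n = 5 each), a ratio of 1.155, with 2 of 5 libraries above the saline range. On this scale S7 took the place of S6 as the highest library for Tnk2 (26.6), while S6 stayed highest for Trpc6 (25.7). The measure was chosen after the levels were seen, and the part of the microglia markers in the differences was not tested.

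**Figure D4:**
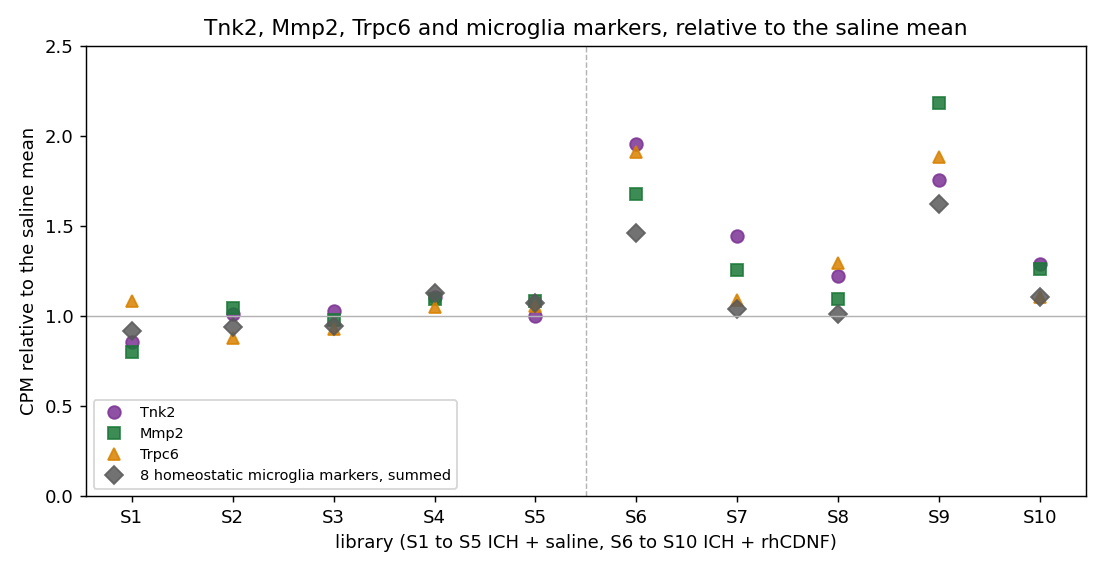
CPM in each library divided by the mean of the 5 saline libraries, for Tnk2, Mmp2, Trpc6 and the sum of the 8 named homeostatic microglia markers. In S6 and S9 all 4 series stand above the saline libraries, and the 3 genes stand above the marker sum, which follows mainly Csf1r. This does not hold for each marker taken singly. On the same scale Sall1 in S6, and P2ry12 and Tmem119 in S9, were above all 3 genes. Cx3cr1, Gpr34, Slc2a5 and Csf1r were below all 3 in both libraries. In S7, S8 and S10 the marker sum is within its saline range.

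Markers of other cells did not share a single order of the libraries, and some were also highest in S6 and S9. Of 9 listed markers of infiltrating monocytes or macrophages 4 could be named, and their summed level was 762 to 853 CPM in saline and 400 to 768 CPM in rhCDNF libraries, lowest in S6. The macrophage mannose receptor Mrc1, the coagulation factor F5 and the extracellular matrix gene Emilin2 were lowest there, at 148, 80.7 and 131 CPM against saline ranges of 276 to 370, 138 to 214.5 and 258 to 308 CPM, while F10 was highest in S6, at 39.7 CPM, and had a within-group r of 0.91 with Tnk2. Mrc1, F5 and Emilin2 thus had their lowest level, and F10 its highest, in the library where Tnk2 and Trpc6 were highest. The complement gene C1qa, one of 2 named among 10 listed myeloid markers, was at 630 to 1035 CPM in saline and 819 to 1591 CPM in rhCDNF libraries, highest in S6.

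Mmp2 is also expressed by vascular and stromal cells. The only pericyte or fibroblast marker of 8 that could be named, the proteoglycan gene Cspg4, which oligodendrocyte precursors also express, was at 69.6 to 119 CPM in saline and 107 to 148 CPM in rhCDNF libraries. It was highest in S9 and lowest in S1, as Mmp2 was, and its within-group r was 0.75 with Mmp2, 0.64 with Tnk2 and 0.29 with Trpc6. This was not particular to Cspg4, since the microglia markers Csf1r and Tmem119 had the same highest and lowest libraries. Their r with Mmp2 was 0.94 and 0.85, and all of the 8 microglia markers except Gpr34 (0.705) had a higher r with Mmp2 than Cspg4 had. The only endothelial marker of 7 that could be named, Vwf, was at 21.8 to 59.8 CPM in saline and 32.8 to 75 CPM in rhCDNF libraries, with an r of -0.20 with Mmp2. The summed level of 3 of 7 astrocyte markers was 143 to 203 CPM in saline and 181 to 248.5 CPM in rhCDNF libraries, highest in S6. Most of that sum was Slc1a3, at 210 CPM in S6. Gfap was highest in S10 (45.2 CPM, against 36.0 in S6) and Slc1a2 in S7 (2.80 CPM, against 2.40 in S6). Cnp, an enzyme of oligodendrocytes, was highest in S6 and S9 and had an r of 0.91 with Tnk2, above that of 7 of the 8 microglia markers. The hemoglobin gene Hba-a1 was at 854 CPM in S8 and at 8.65 to 42.8 CPM elsewhere. S8 was the lowest rhCDNF library for Tnk2 and Mmp2, but for Trpc6 it was above S7 and S10. The part of these cells in the levels of the 3 genes was not tested, and markers of neurons and neutrophils could not be named here.

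Few relatives of the 3 genes could be named. Mmp14, which activates the Mmp2 precursor, was the only 1 of 17 other metalloproteinases listed. It was at 315 CPM in S1, 352 in S2, 357 in S3, 316 in S4 and 296 in S5, and at 168 in S6, 311 in S7, 305 in S8, 301 in S9 and 271 in S10. Its fitted log2 fold change was -0.27 (SE 0.14, adjusted p = 0.452, edgeR's quasi-likelihood test), so it was not called. Mmp14 was lowest in S6, where Mmp2 was second to S9, and in S9 it was near its level in S7 and S8.

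Of 10 other calcium entry channels listed, only Trpm2, opened by ADP-ribose and oxidative stress, could be named. Its saline range was 175 to 227 CPM, and the rhCDNF libraries held 525 CPM in S6, 239.5 in S7, 204 in S8, 331 in S9 and 214 in S10 (log2 fold change 0.56, SE 0.23, adjusted p = 0.386 by the same edgeR test). Its within-group r was 0.94 with Tnk2 and 0.76 with Trpc6. Of 15 listed relatives and partners of Tnk2, only Axl, a receptor tyrosine kinase of phagocytes, could be named, with 134 to 213 CPM in saline libraries, 480.5 CPM in S6 and 148 to 203 CPM in the other rhCDNF libraries (log2 fold change 0.50, SE 0.29, adjusted p = 0.489 by the same edgeR test). Neither gene was called, and both were highest in S6, as were Tnk2 and Trpc6. None of the other TRPC channels or of the metalloproteinase inhibitors could be named.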

How the data were processed

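Libraries of CD11b+ cells were directional, rRNA-depleted and read from a single end. The authors trimmed, aligned (Rnor_6.0) and counted these per Ensembl gene, and the deposited values are raw counts, 1 column per library. Tools in the submitters' processing notes are Subread 1.6.4 (featureCounts), STAR 2.5.3a and Trimmomatic 0.36; the methods name another STAR release. Column names show a library number, placed in its group by the headings of the study's table.

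The fits used edgeR 4.0.16 under R 4.3.3 (filter by expression, TMM, quasi-likelihood test without covariates, Benjamini-Hochberg over 12199 genes, threshold 0.05) and DESeq2 1.42.0. CPM carry the TMM scaling, and log2 CPM a prior count of 2. The test code was tested on simulated data. Settings tried were other size factors, total count scaling, no filter, another prior count, 2 other tests and each library left out.

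The genes, lists and rules were chosen with earlier results of these data known. The rule for named genes was the 3 genes, listed relatives, and for each the 3 most alike genes with a symbol and at least 10 CPM. It named identifiers other than the 3 genes only where a table paired them with symbols. As none did, 789 identifiers were named after the data were seen by their profile, as Mmp2 and Trpc6 were, where the next best match had an SD at least 1.5 times as large. The key was the first 1998 rows of the study's table, which is sorted by p, and its values are not reported. Named this way were 25 of the 131 listed genes. Tests on the gene lists were therefore not run. A wrong name is possible where a gene lies outside those rows. A listed marker of oligodendrocytes is not reported here.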

Additional observations from a re-analysis of the deposited data

How the results depend on the processing

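The count of genes called was 0 in the edgeR quasi-likelihood test with either size factors, without a filter and without any 1 library (0 to 0), 2 in DESeq2 and 3 in edgeR's likelihood ratio test. With DESeq2's size factors in edgeR, the Mmp2 gap between the lowest rhCDNF and the highest saline library was 0.004 on the log2 scale, instead of -0.001, and without 1 library it ranged from -0.002 to 0.203, being above 0 without S4 (0.005), S5, S8 (0.203), S9 (0.001) or S10 (0.001). That of Trpc6 was -0.003 with total count scaling, instead of 0.009, and 0.009 to 0.040 without 1 library. Whether the groups overlap thus depends on the scaling for both genes and, for Mmp2, on S4 and S8, which set its margin. Without S5, S9 or S10 that margin was still between S8 and S4, and only the filter and scaling, fitted again, moved it. The gap of Tnk2 stayed at 0.142 to 0.250 without 1 library. The within-group r of Tnk2 and Mmp2 was 0.798 to 0.927 without 1 library, but its adjusted p was above the threshold without S1 (r = 0.823, p = 0.101), S2 (0.850, 0.0521), S3 (0.855, 0.0510), S4 (0.849, 0.0542), S7 (0.855, 0.106), S8 (0.798, 0.150) or S10 (0.847, 0.118), by exact permutation, and without both S6 and S8 (r = 0.905, adjusted p = 0.0833), where fewer libraries also leave fewer arrangements. The r of Trpc6 was 0.510 to 0.824 with Tnk2 and 0.493 to 0.822 with Mmp2. The fold changes of the 3 genes moved by less than 1 SD between replicates under all alternatives run. No paired analysis was possible because the columns do not carry the replicate numbers of the labels. Depth does not limit the levels, but counting error exceeds the margin between the groups for Mmp2 and Trpc6.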
